A study of Homo sapiens with 60 samples.

Results

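The comparison set the high dose of a dimerizing drug against an intermediate dose of it, both after 2 h, in a human cell line whose integrated stress response can be switched on by that drug alone. Its members were the 3 libraries labelled 3 nM at 2 h and the 3 libraries labelled with the intermediate dose at 2 h, 6 of the 60 RNA-seq libraries in the series. The cells were U2OS, an osteosarcoma line, carrying a stable transgene called Dmr-PERK, in which the kinase domain of mouse PERK is joined to a DmrB domain that pairs up when its ligand AP20187 is added. The study treated them with 0.01, 0.2 or 3 nM of AP20187 for 1 to 24 h and kept 2 sets of untreated libraries, labelled UT 2 and UT, at 0 h. The intermediate dose is 195 pM on the library labels and 0.2 nM in the series' own text, and is called 0.2 nM here. The submitters chose the doses for the loss of protein synthesis they cause, 75% at 3 nM and 50% at the intermediate dose. All cells carried the transgene, untreated ones included, and the endogenous genotype is given as wild type.

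In the integrated stress response, kinases such as PERK (encoded by EIF2AK3) phosphorylate the initiation factor eIF2 alpha. General translation then slows while the mRNA of the transcription factor ATF4 is translated better, and ATF4 with its partners turns on genes of amino acid supply, redox balance and feedback, among them PPP1R15A, whose product helps to dephosphorylate eIF2 alpha. Blocking translation is also known to raise immediate early genes, the short-lived transcripts of factors such as FOS, JUN and EGR1.

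Each treatment was measured in triplicate, and since nothing in the labels says that the replicates were independent cultures, the p-values measure only the spread between these libraries, which may be technical. Total counts were 23797070 to 24595607 at 3 nM, 6498944 to 8672862 at 0.2 nM, 20713699 to 26748176 in UT 2 and 7169721 to 8395019 in UT. Levels are given as CPM, counts scaled to library size, and folds as log2 fold changes. At these depths 3 counts, taken as the detection floor per library, corresponded to 0.126 CPM at 3 nM and 0.462 CPM at 0.2 nM. All 3 nM and UT 2 libraries were deep and all 0.2 nM, 0.01 nM and UT libraries shallow, so the sequencing set and the dose cannot be told apart in the direct comparison. Each dose was therefore also set against the untreated libraries of like depth, 3 nM against UT 2 and 0.2 nM against UT, and the difference between these 2 responses is called the untreated-adjusted gap. The labels do not say that the untreated sets were grown with those doses. Of 10 mesenchymal and osteoblast markers, 9 passed the expression filter, with VIM at 2762 and COL1A1 at 936 CPM on average at 3 nM, while 7 of 9 blood and immune markers did not pass it. Of 8 epithelial markers 7 also passed, with KRT18 at 582 and EPCAM at 5.10 CPM on average at 3 nM. Of 7 endothelial markers 5 passed, with VWF at 3.70 CPM, so passing the filter does not tell the cell type.

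Some libraries stood apart. In UT all mitochondrially encoded genes together took 10.5% ± 0.695 of counts, against 4.88% ± 0.0227 at 3 nM, 5.44% ± 0.0745 at 0.2 nM and 5.49% ± 0.0728 in UT 2 (SD, n = 3 each). The untreated sets differed from each other at 28.8% of the 18040 genes tested (UT 2 minus UT, edgeR's quasi-likelihood test, adjusted p under 0.05), and UT held more FOS, with 510.2, 654 and 785 CPM, than UT 2, with 77.6, 85.4 and 92.1 CPM. A change relative to the same dose at 1 h, which uses neither untreated set, is therefore also given for many of the lists and genes. Replicate 3 at 3 nM stood apart in structural RNAs, with 513 CPM of RNA5-8S5, a 5.8S ribosomal RNA gene, against 135 and 118 CPM in the other 3 nM libraries and 11.7, 11.5 and 9.49 CPM at 0.2 nM. These RNAs come from many near-identical copies, so their counts are uncertain, and the part of this library in other results was not tested beyond leaving it out.

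Taken directly, 3 nM and 0.2 nM differed at many genes by small amounts. Between 3 nM and 0.2 nM, 3757 genes were higher at 3 nM, 20.8% of those tested, and 2716 were lower, 15.1%. The median over all genes was 0.02 on the log2 scale. A change of at least 2-fold was called for 185 genes (1.03%) in the higher and 170 genes (0.942%) in the lower direction. Without replicate 3 at 3 nM the calls were 3418 higher and 2448 lower. The untreated-adjusted gap was called higher for 2100 genes (11.6%) and lower for 1907 genes (10.6%). In both comparisons and the same direction, 1510 genes (8.37%) were higher and 1079 (5.98%) lower. With at least 2-fold in both, 47 (0.261%) were higher and 76 (0.421%) lower, or 38 and 76 without replicate 3 at 3 nM. Of the 47, 30 were protein coding. Of the 76, 25 were protein coding and 32 were long noncoding RNAs, and 24 averaged under 1 CPM.

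The promoters of 4 genes are shown for elements of both programmes, with 1 element in each of ASNS and CHAC1, whose mRNAs did not pass the test between the doses, 1 in ATF3, whose mRNA was higher at 3 nM, and 2 in EGR1, whose mRNA was also higher at 3 nM. Shown are the 250 bases before each gene's annotated start from RefSeq (GRCh38.p14), 5′ to 3′ on the gene's strand. In ATF3 (chr1:212565157-212565406, plus strand), ASNS (chr7:97872409-97872658, minus strand) and CHAC1 (chr15:40953221-40953470, plus strand) capitals mark the C/EBP-ATF element, the composite site that ATF4 binds with a C/EBP partner. In EGR1 (chr5:138465229-138465478, plus strand) capitals mark the CArG boxes, the sites of serum response factor.
ATF3: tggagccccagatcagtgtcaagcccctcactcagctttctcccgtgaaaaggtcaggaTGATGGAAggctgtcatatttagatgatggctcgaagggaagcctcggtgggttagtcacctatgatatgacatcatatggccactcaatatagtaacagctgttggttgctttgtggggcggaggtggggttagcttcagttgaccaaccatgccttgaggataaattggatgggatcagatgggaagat
ASNS: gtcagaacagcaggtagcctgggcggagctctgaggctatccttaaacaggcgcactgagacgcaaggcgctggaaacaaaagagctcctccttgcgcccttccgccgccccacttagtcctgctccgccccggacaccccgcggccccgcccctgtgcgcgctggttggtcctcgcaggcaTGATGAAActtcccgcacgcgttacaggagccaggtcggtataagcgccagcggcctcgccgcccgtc
CHAC1: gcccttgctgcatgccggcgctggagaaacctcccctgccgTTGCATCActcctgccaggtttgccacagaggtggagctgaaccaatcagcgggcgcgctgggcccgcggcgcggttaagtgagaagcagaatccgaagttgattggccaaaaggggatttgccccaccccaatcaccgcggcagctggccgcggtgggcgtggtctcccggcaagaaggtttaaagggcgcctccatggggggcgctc
EGR1: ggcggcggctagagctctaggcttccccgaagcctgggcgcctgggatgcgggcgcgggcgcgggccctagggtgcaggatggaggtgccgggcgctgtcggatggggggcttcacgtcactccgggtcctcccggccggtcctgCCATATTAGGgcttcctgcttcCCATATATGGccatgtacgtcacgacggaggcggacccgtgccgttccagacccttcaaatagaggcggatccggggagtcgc
The C/EBP-ATF element was searched as TGATGNAA on both strands and was found in 3.19% of 27305 promoters of this length, the CArG box in 1.14%. The element lies 184 bases before the start in ATF3, 61 in ASNS and 202 in CHAC1. It was thus present in ATF3, whose mRNA differed between the doses, and in ASNS and CHAC1, which were not called. The windows of DDIT3, PPP1R15A, TRIB3, DDIT4, SESN2 and ATF4 held 0 such elements. The CArG boxes lie 96 and 74 bases before the start in EGR1, while the windows of EGR2, EGR4, FOSB, FOS and JUN held 0. Of the core integrated stress response list, 20 of 22 genes had a promoter in the table and 5 of these held the C/EBP-ATF element and 0 a CArG box. Of the immediate early list, 16 of 22 had one, and 0 held the C/EBP-ATF element and 2 a CArG box. The ATF3 window lies at the 5′ end of the annotated gene, and other ATF3 starts were not searched. A match describes these letters in these windows and says nothing about binding.

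Like most genes tested, most canonical ATF4 targets were not called different between the doses at 2 h. Of 22 core genes, 6 were higher at 3 nM (20.8% of all genes), 3 lower (15.1%) and 13 not called. Over all genes, 11567 of the 18040 tested were not called. The median of the core list was 0.08 beside 0.02 over all genes. In the untreated-adjusted gap 9 were higher (11.6% of all genes) and 0 lower (10.6%), with a median of 0.23 beside 0.02, and UT 2 lay below UT for this list at a median of -0.28. In both comparisons 4 were higher and 0 lower. Relative to 1 h the gap had changed upward for 2 and downward for 5. Set against UT 2, 20 of the 22 were higher at 3 nM (22.3% of all genes), and 16 of the 22 were higher at 0.2 nM set against UT (22.0% of all genes). ATF4 itself (chr22:39519695-39522685) had 566, 559 and 561 CPM at 3 nM, against 568, 541 and 534 CPM at 0.2 nM, and 296, 299 and 284 CPM in UT 2 and 365, 370.4 and 369 CPM in UT. The dose groups overlapped, and the log2 fold change was 0.04, with a 95% interval of -0.03 to 0.11 (edgeR, adjusted p = 0.4285).

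CHAC1, which degrades glutathione, had 66.0, 61.2 and 64.5 CPM at 3 nM, against 64.6, 65.5 and 68.2 CPM at 0.2 nM, and lay under 7 CPM in every untreated library. The dose groups overlapped, at a log2 fold change of -0.05 with a 95% interval of -0.16 to 0.06 (edgeR, adjusted p = 0.5394). ASNS, asparagine synthetase, had 109, 102 and 100.3 CPM at 3 nM and 108, 102 and 94.1 CPM at 0.2 nM. Its groups overlapped too, at 0.03 with an interval of -0.09 to 0.15 (edgeR, adjusted p = 0.7388). No bound of these 3 intervals lay farther from 0 than -0.16 on the log2 scale. CHAC1 and ATF4 were nonetheless called in the untreated-adjusted gap, at 0.79 and 0.37 on the log2 scale, where UT held more of both mRNAs than UT 2.

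SESN2, a stress-induced inhibitor of mTORC1, had 138, 125 and 128 CPM at 3 nM and 139.9, 137 and 139 CPM at 0.2 nM (log2 fold change -0.09, edgeR, adjusted p = 0.09422), and it was called lower in 4 of 20 alternative analyses, at -0.105 to -0.134, among them the one without replicate 1 at 3 nM. Its untreated-adjusted gap had the opposite sign and was called, at 0.45 (edgeR, adjusted p = 9.918e-07). DDIT4, another mTORC1 inhibitor, had 321, 314 and 298 CPM at 3 nM and 348, 345 and 331 CPM at 0.2 nM. The groups did not overlap, but the fold change of -0.14 (edgeR, adjusted p = 0.03865) missed the threshold in 6 of 20 alternatives, among them those without replicate 2 or 3 at 3 nM (adjusted p = 0.05924 and 0.1592) and those without replicate 1 or 2 at 0.2 nM (adjusted p = 0.1245 and 0.1099). TRIB3, a pseudokinase that restrains ATF4 and DDIT3, was lower at 3 nM. It had 66.9, 52.9 and 52.1 CPM at 3 nM, against 82.3, 71.3 and 77.9 CPM at 0.2 nM, and the groups did not overlap (log2 fold change -0.43 ± 0.0813, SE, edgeR, adjusted p = 3.841e-05). Its untreated-adjusted gap, -0.20, was not called (edgeR, adjusted p = 0.3147), while relative to 1 h the gap changed by -0.51 (edgeR, adjusted p = 0.02601). The third lower core gene, HERPUD1, of ER-associated degradation, differed by -0.45 directly and changed by -0.46 relative to 1 h, but its untreated-adjusted gap of -0.08 was not called (edgeR, adjusted p = 0.4127). EIF2AK3 stood at 735, 780.1 and 772 CPM at 3 nM and 686, 742 and 714 CPM at 0.2 nM, groups that overlapped (0.09, edgeR, adjusted p = 0.01734). That small rise was not called without replicate 2 or 3 at 3 nM or without replicate 1 at 0.2 nM (adjusted p = 0.09734, 0.06461 and 0.1671), with RLE scaling (adjusted p = 0.05515) or with the deep libraries thinned (adjusted p = 0.09678), and reads of the mouse kinase domain in the transgene may be counted there.

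Of the 6 core genes higher at 3 nM, ATF3, PPP1R15A and DDIT3 differed most, and NUPR1, CEBPG and ATF5 differed by 0.20 to 0.32. ATF3 (chr1:212565334-212620777), a stress-induced repressor and activator of the ATF family, had 751, 896 and 925 CPM at 3 nM, against 348, 361 and 370.2 CPM at 0.2 nM. Every 3 nM library lay above every 0.2 nM library, at a log2 fold change of 1.25 ± 0.0766 (SE, edgeR, adjusted p = 3.638e-17). It had 352, 351 and 356 CPM in UT 2 and 679, 681 and 742 CPM in UT, so it was above its untreated set at 3 nM (log2 fold change 1.28) and below it at 0.2 nM (-0.96).

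PPP1R15A (chr19:48872392-48876057), the stress-inducible subunit of the eIF2 alpha phosphatase, had 233, 253 and 261 CPM at 3 nM, against 124, 129.8 and 134 CPM at 0.2 nM. The groups were again apart, at 0.95 ± 0.0495 on the log2 scale (SE, edgeR, adjusted p = 7.202e-25). UT 2 held 83.3 to 92.0 CPM and UT 112 to 142 CPM, and at 0.2 nM PPP1R15A was not called against UT (log2 fold change 0.02, edgeR, adjusted p = 0.828). DDIT3 (chr12:57516588-57521737), which encodes the death-promoting factor CHOP, had 126, 148 and 156 CPM at 3 nM, against 97.2, 97.5 and 106 CPM at 0.2 nM. It differed by 0.52 ± 0.0684 (SE, edgeR, adjusted p = 2.847e-08), and both doses lay above all untreated libraries, which reached 43.1 CPM. The untreated-adjusted gaps of ATF3, PPP1R15A and DDIT3 were 2.24, 1.48 and 1.12 on the log2 scale. Relative to 1 h, the gap had widened for ATF3 by 0.85 and for PPP1R15A by 0.42, while the change for DDIT3, -0.10, was not called (edgeR, adjusted p = 0.7366). At 0.01 nM for 2 h these genes averaged 125, 62.7 and 43.5 CPM.

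**Figure D1:**
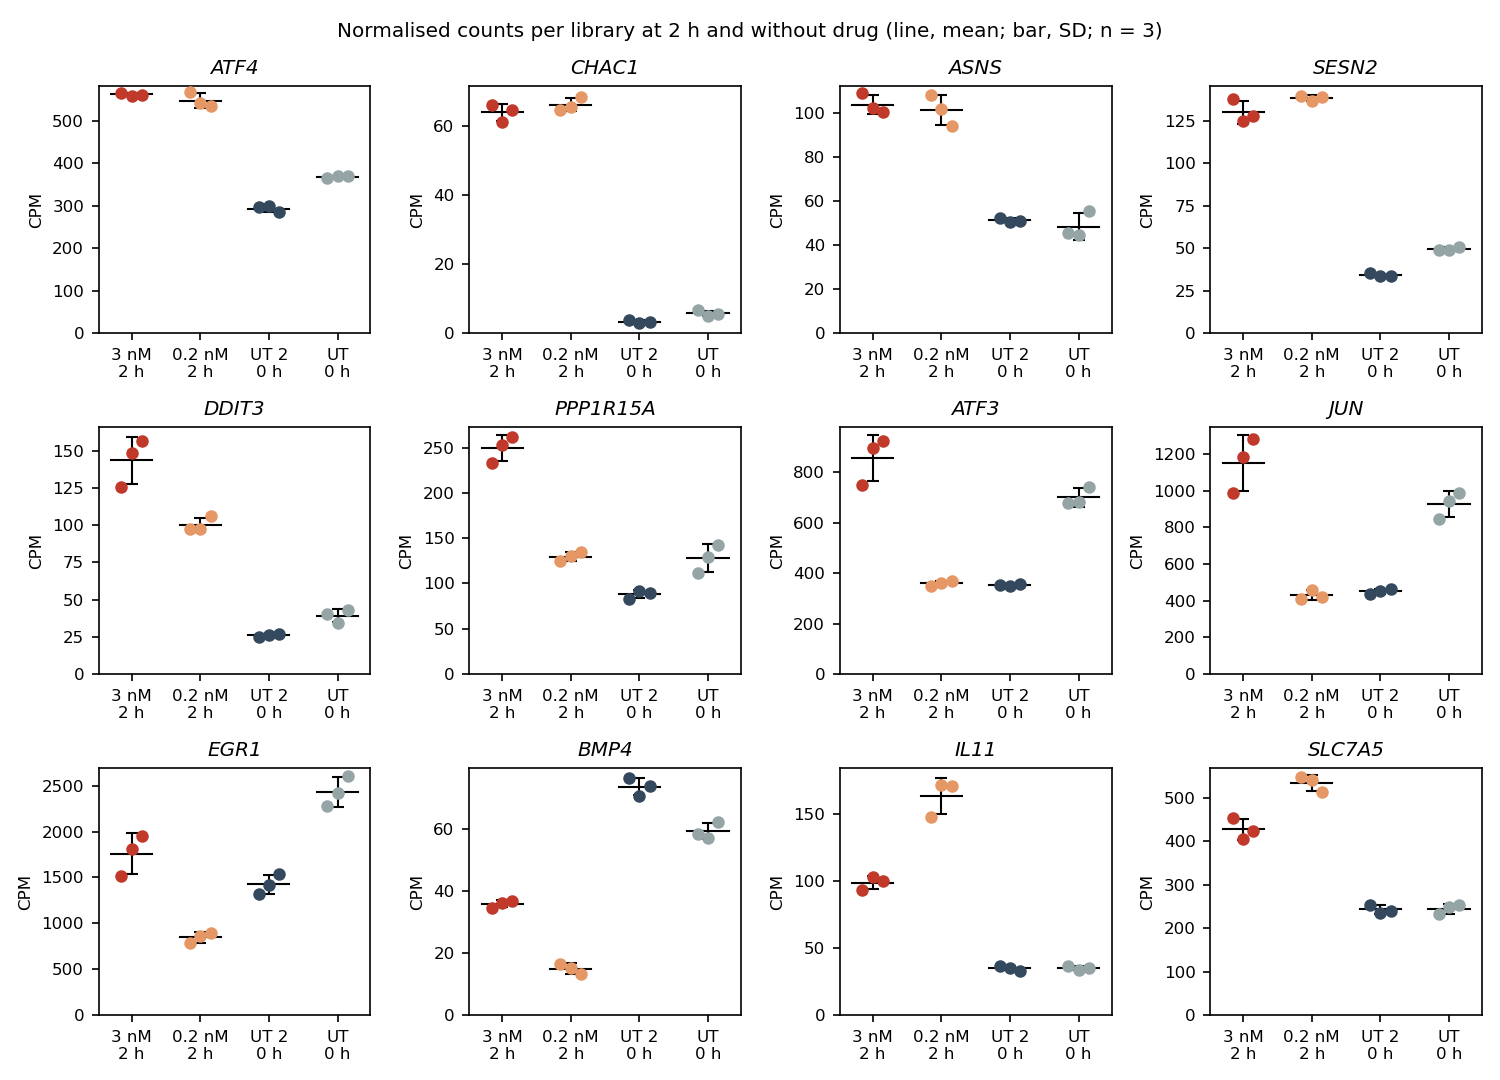
Normalised counts (CPM, vertical axes from 0) of 12 genes in each library at 3 nM and 0.2 nM after 2 h and in the untreated sets UT 2 and UT. Points are libraries, lines means and bars SD (n = 3). ATF4, CHAC1, ASNS and SESN2 sit at similar heights at both doses, ATF3, JUN, EGR1 and BMP4 are higher at 3 nM, and IL11 and SLC7A5 are lower at 3 nM.

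Of the 31 gene lists, immediate early genes had the highest median. 18 of 21 tested members were higher at 3 nM (20.8% of all genes) and 0 lower (15.1%), with a median of 0.69 on the log2 scale beside 0.02 over all genes. In both comparisons 15 of the 21 were higher, beside 8.37% of all genes. The untreated-adjusted median was 1.04, but UT 2 lay below UT for this list at a median of -0.46, with 16 of the 21 called lower. At 0.2 nM 13 of the 21 were lower than UT and 5 higher (22.0% of all genes each). Without replicate 3 at 3 nM, 17 of the 21 were higher directly. JUN, a subunit of the AP-1 factor, had 987, 1186 and 1283 CPM at 3 nM, against 408, 460.0 and 423 CPM at 0.2 nM. The groups did not overlap, at a log2 fold change of 1.42 ± 0.0582 (SE, edgeR, adjusted p = 3.638e-23). FOSB (chr19:45467995-45475179), another AP-1 subunit, had 30.8, 42.2 and 50.6 CPM at 3 nM and 8.82, 13.1 and 12.4 CPM at 0.2 nM. Its difference of 1.86 ± 0.326 (SE, edgeR, adjusted p = 1.169e-05) was the largest of the list, but UT held 137, 182 and 215 CPM, and the untreated-adjusted gap of 4.83 includes a difference of -3.97 between 0.2 nM and UT. At 0.01 nM for 2 h FOSB averaged 40.5 ± 29.4 CPM (SD, n = 3), so its mean was not ordered by dose.

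The zinc finger factors of the EGR family were also higher at 3 nM. EGR2 had 144, 199.8 and 211 CPM at 3 nM, against 58.0, 63.0 and 69.9 CPM at 0.2 nM (log2 fold change 1.54 ± 0.091, SE, edgeR, adjusted p = 1.079e-17). It was not above UT 2, whose libraries had 184, 194 and 191 CPM, whereas at 0.2 nM it lay below UT. EGR4 had 90.7, 102 and 111 CPM at 3 nM and 32.1, 41.5 and 39.0 CPM at 0.2 nM, and UT 2 and UT held 14.4 to 15.2 and 19.6 to 21.3 CPM. It thus rose above untreated cells at both doses, by 2.77 at 3 nM and 0.87 at 0.2 nM on the log2 scale. EGR1, described because its promoter is printed above and chosen after its values were seen, had 1513, 1816 and 1951 CPM at 3 nM, against 783, 861 and 896 CPM at 0.2 nM (log2 fold change 1.06, edgeR, adjusted p = 6.747e-14). In all these genes the 3 nM and 0.2 nM libraries did not overlap, and replicate 1 was the lowest of the 3 nM libraries. Measured against 1 h, the gap had changed upward for 11 of the 21 immediate early genes and downward for 0 (1.58% and 2.12% of all genes). The median change was 0.40 beside 0.01 over all genes.

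**Figure D2:**
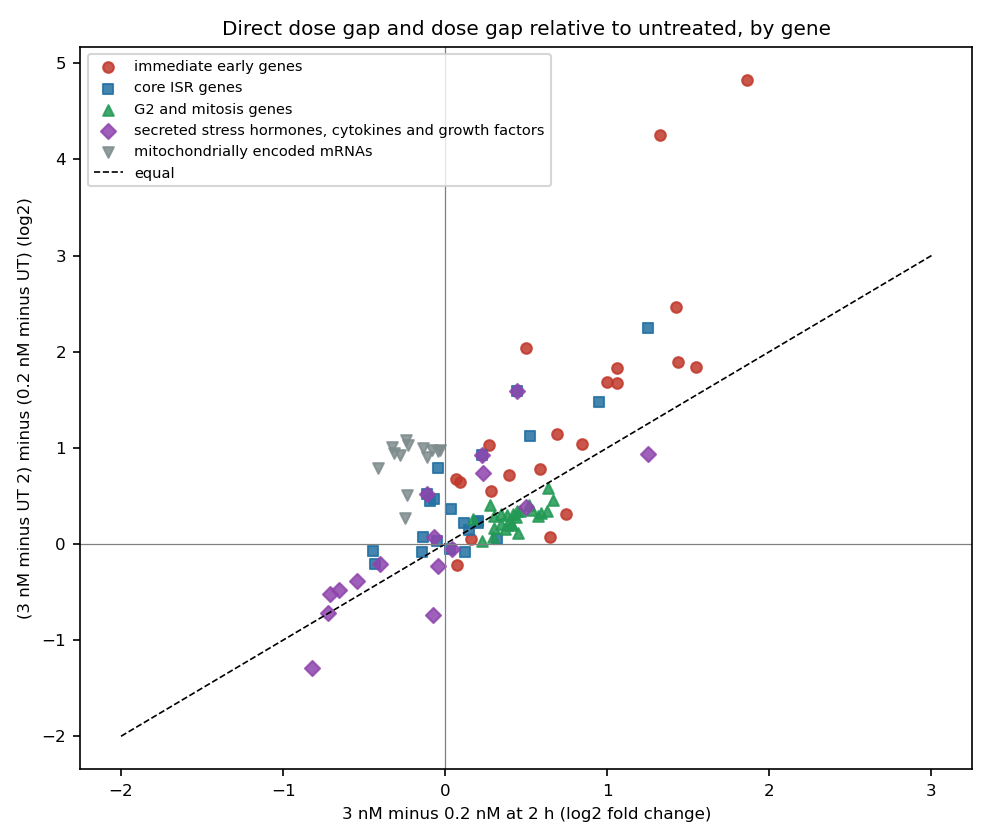
Each point is a gene of 5 lists, with the log2 fold change of 3 nM over 0.2 nM at 2 h on the horizontal axis and the untreated-adjusted gap on the vertical axis; the dashed line marks equal values. Immediate early genes lie to the right of 0 and mostly above the line, mitotic genes lie near 0.41 on the horizontal axis, and the mitochondrially encoded mRNAs sit left of 0 but above it on the vertical axis.

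Genes of G2 and mitosis were all higher at 3 nM, 25 of 25 tested (20.8% of all genes), with a median of 0.41, and 25 of 25 without replicate 3 at 3 nM. They were not raised above untreated cells. Set against UT 2, 14 were lower at 3 nM and 0 higher (19.5% of all genes were lower), while 25 of 25 were lower at 0.2 nM set against UT (22.0%). AURKA, a spindle kinase, had 75.6, 81.6 and 77.9 CPM at 3 nM, against 50.2, 44.8 and 56.9 CPM at 0.2 nM, 80.1 to 84.8 CPM in UT 2 and 74.0 to 86.6 CPM in UT. The dose groups did not overlap (log2 fold change 0.64 ± 0.0649, SE, edgeR, adjusted p = 8.916e-13), and 3 nM was close to its untreated set (-0.08, edgeR, adjusted p = 0.2439). CKAP2, which binds spindle microtubules, and DLGAP5, a spindle assembly factor, differed by 0.67 and 0.63. 19 of the 25 were also higher in the untreated-adjusted gap (11.6% of all genes), with a smaller median of 0.29. UT 2 lay above UT for this list at a median of 0.15, with 15 of the 25 called higher and 0 lower. The gap of 8 had changed upward since 1 h (1.58%). In these bulk libraries fewer mitotic cells and less RNA per cell cannot be told apart. At 0.01 nM, sequenced as shallowly as 0.2 nM, AURKA averaged 39.6 CPM, below both higher doses.

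Feedback genes of BMP, TGF-beta and Wnt signalling were mostly higher at 3 nM, 12 of 16 (20.8% of all genes), with 1 lower (15.1%) and a median of 0.66. The untreated-adjusted median was 0.32, with 7 higher and 2 lower, and UT 2 lay above UT for this list at a median of 0.40. SMAD6, an inhibitor of BMP receptors, had 41.2, 45.1 and 44.8 CPM at 3 nM, against 19.7, 17.3 and 22.2 CPM at 0.2 nM (log2 fold change 1.15 ± 0.0858, SE, edgeR, adjusted p = 1.719e-20). ID2, a BMP target that blocks basic helix-loop-helix factors, had 24.3, 26.8 and 30.5 CPM at 3 nM and 13.7, 14.5 and 11.2 CPM at 0.2 nM, a difference of 1.04. The untreated-adjusted gaps of SMAD6 and ID2 were 0.75 and 0.45. Both were without overlap between the doses. The ligand BMP4 (chr14:53949736-53958761) had 34.7, 36.2 and 37.0 CPM at 3 nM, against 16.5, 15.3 and 13.2 CPM at 0.2 nM. It fell below the untreated set at both doses, by 1.04 at 3 nM and by 1.98 at 0.2 nM on the log2 scale, so the positive gap of 1.25 ± 0.0884 (SE, edgeR, adjusted p = 1.169e-21) marks the smaller loss. 6 of the 16 feedback genes were higher in both comparisons, and relative to 1 h the gap had changed upward for 2 and downward for 2.

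Inflammatory, apoptotic and growth-arrest genes were mixed. Of 21 NF-kB subunits, inhibitors and targets, 10 were higher at 3 nM (20.8% of all genes) and 2 lower (15.1%), with a median of 0.20. In the untreated-adjusted gap 6 were higher and 5 lower, with a median of 0.04. The chemokine gene CXCL3 had 8.12, 7.46 and 6.87 CPM at 3 nM, against 2.90, 2.75 and 2.75 CPM at 0.2 nM, a log2 fold change of 1.41 without overlap (edgeR, adjusted p = 2.242e-07). NFKBIA, the inhibitor of NF-kB, had 219, 239 and 242 CPM at 3 nM and 116, 129.6 and 117 CPM at 0.2 nM, a difference of 0.95. Relative to 1 h, the gap of 1 member had changed upward and that of 7 downward.

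Among 16 death receptors and BCL2 family members, 6 were higher (20.8% of all genes) and 4 lower (15.1%). In the untreated-adjusted gap 6 were higher (11.6% of all genes) and 1 lower (10.6%). BMF, a pro-apoptotic BH3-only protein, had 9.80, 11.9 and 11.8 CPM at 3 nM and 4.29, 4.58 and 4.74 CPM at 0.2 nM, both below the untreated range of 19.3 to 32.5 CPM. MCL1, an anti-apoptotic and short-lived member, was 0.57 higher at 3 nM on the log2 scale. Of 19 p53 targets, 10 were higher and 4 lower directly, and 12 and 1 in the untreated-adjusted gap. CDKN1A, among the 4 lower, differed by -0.15, but its untreated-adjusted gap was 0.32. PLK2, a stress-induced kinase, had 112, 118 and 120.4 CPM at 3 nM, against 64.0, 58.6 and 58.6 CPM at 0.2 nM (0.94), and GADD45A, a growth-arrest gene, was 0.59 higher. With limma on TPM, 4 p53 targets were called higher and 3 lower, and 4 and 1 of the death receptor and BCL2 list.

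Host transcripts of small nucleolar RNAs, many of them noncoding RNAs that are removed by nonsense-mediated decay when translated, were mostly higher at 3 nM. Of 14 tested, 11 were higher (20.8% of all genes) and 1 lower (15.1%), with a median of 0.34 beside 0.02 over all genes. SNHG8 had 57.5, 59.3 and 58.1 CPM at 3 nM, against 37.7, 36.9 and 32.9 CPM at 0.2 nM, and 30.3 to 32.1 CPM in UT 2 and 31.9 to 39.6 CPM in UT. SNHG8 thus exceeded UT 2 at 3 nM by 0.91 on the log2 scale and was not called against UT at 0.2 nM (-0.02, edgeR, adjusted p = 0.8711). SNHG5 and ZFAS1 differed between the doses by 0.69 and 0.65. 9 of the 14 were higher in both comparisons (8.37% of all genes), and the gap of 0 had changed either way since 1 h. Of 13 circadian clock genes 10 were higher (20.8% of all genes) and 0 lower, with a median of 0.30, and in the untreated-adjusted gap 4 were higher, with a median of 0.14. NR1D1, a repressor of the clock, had 77.6, 89.8 and 89.4 CPM at 3 nM, against 48.6, 43.1 and 46.8 CPM at 0.2 nM (0.89). With limma on TPM 4 of the 13 clock genes were called higher, while 11 snoRNA hosts were.

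**Figure D3:**
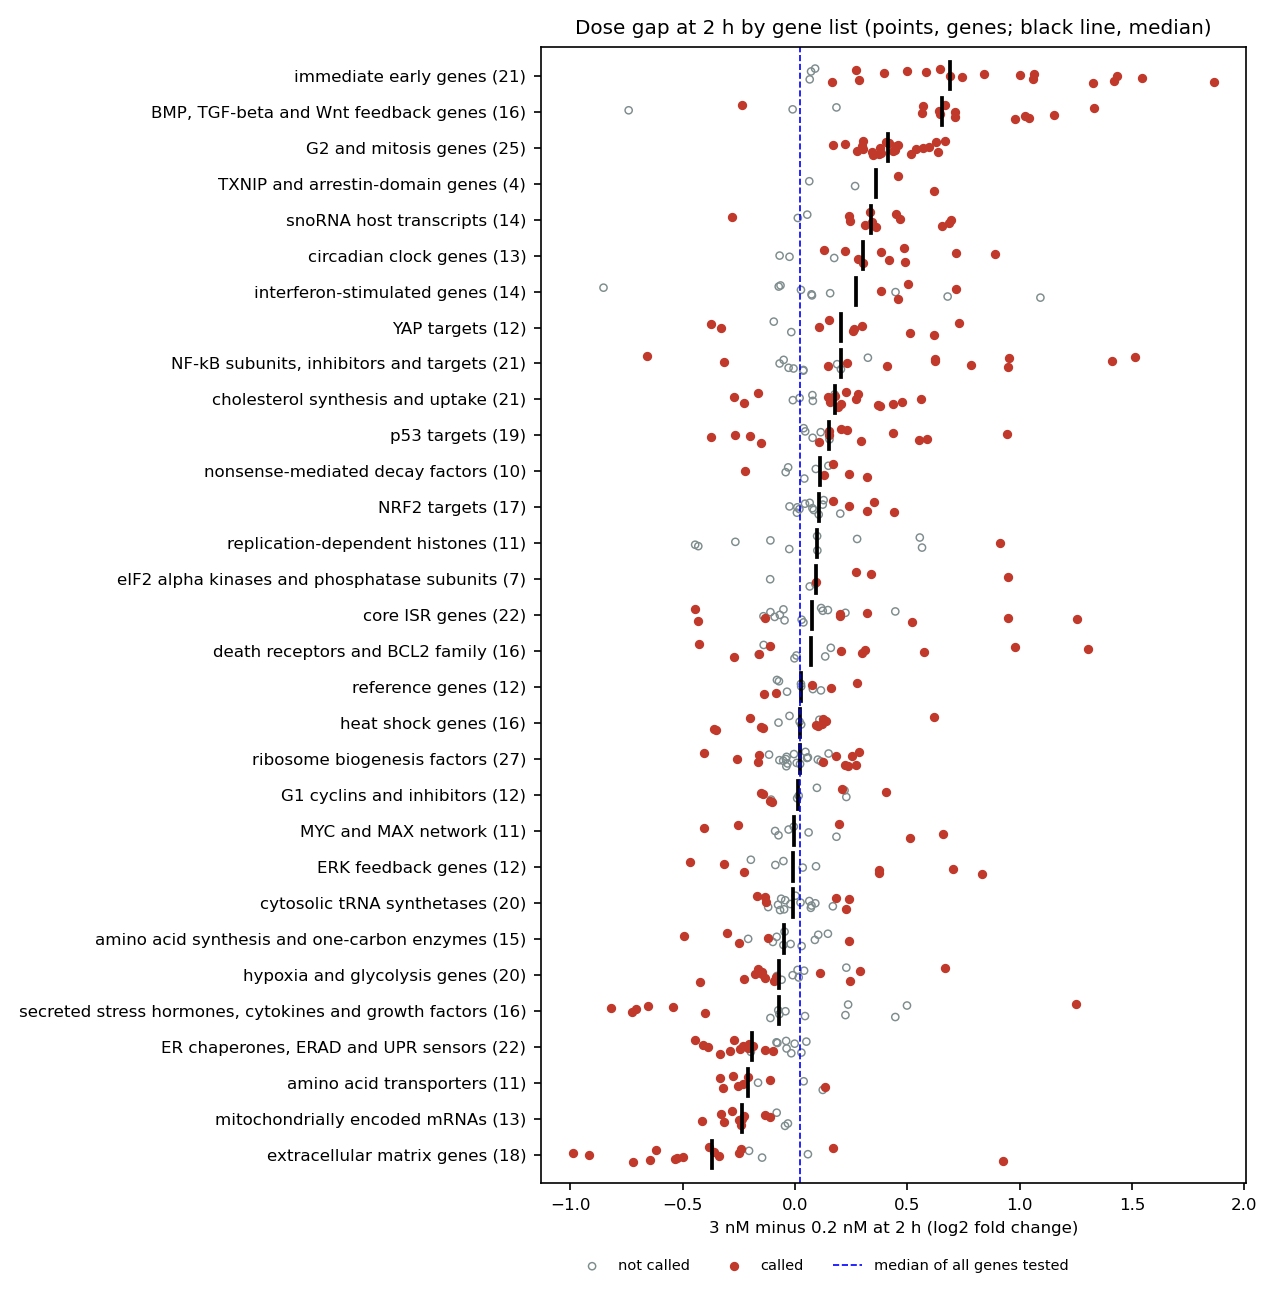
Log2 fold change of 3 nM over 0.2 nM at 2 h for the tested members of 31 gene lists (number tested in brackets), filled where called by edgeR and open where not. Black lines are list medians and the dashed line the median of all genes, 0.02; the lists run from immediate early genes at the top, median 0.69, to extracellular matrix genes at the bottom, median -0.37.

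Fewer lists were lower at the high dose. Of 16 secreted hormones, cytokines and growth factors, 6 were lower at 3 nM (15.1% of all genes) and 1, BMP4, higher (20.8%). The list median was -0.07 beside 0.02 over all genes. The same counts of 6 and 1 held for both comparisons together (5.98% and 8.37% of all genes). IL11 (chr19:55364389-55370463), a cytokine of the IL6 family, had 93.2, 103 and 100.1 CPM at 3 nM, against 148, 172 and 171 CPM at 0.2 nM, and 33.1 to 36.5 CPM over the untreated libraries. Both doses exceeded untreated cells, and 3 nM did so by less (log2 fold change -0.72 ± 0.0714, SE, edgeR, adjusted p = 3.685e-11; untreated-adjusted -0.72). At 0.01 nM IL11 averaged 239 CPM, so the level was lower at each step up in dose. The EGF-receptor ligand EREG had 2.34, 1.82 and 2.15 CPM at 3 nM and 3.83, 3.67 and 3.67 CPM at 0.2 nM (-0.82).

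Amino acid transporters, another arm of the ATF4 programme, were lower at 3 nM in 7 of 11 cases (15.1% of all genes) and higher in 1 (20.8%), with a median of -0.21. The untreated-adjusted median was -0.08, with 5 lower and 1 higher, 4 were lower in both, and relative to 1 h 6 had changed downward. SLC7A5, the large neutral amino acid exchanger, had 453, 406 and 423 CPM at 3 nM, against 548, 541 and 514 CPM at 0.2 nM, and 234 to 254 CPM in UT 2 and 232 to 253 CPM in UT. It was raised over untreated cells at both doses and less at 3 nM (-0.32 ± 0.0356, SE, edgeR, adjusted p = 1.67e-12; untreated-adjusted -0.32; change since 1 h -0.39), and SLC7A1, the cationic amino acid transporter, differed by -0.25. Of 15 enzymes of amino acid synthesis and one-carbon metabolism, 4 were lower and 1 higher. GPT2, alanine transaminase, had 73.1, 61.0 and 63.3 CPM at 3 nM and 95.4, 90.6 and 92.3 CPM at 0.2 nM (-0.50), and MTHFD2, a mitochondrial folate enzyme, was 0.24 higher. Of 20 cytosolic tRNA synthetases, 3 were higher and 3 lower.

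In several lists the direct and the untreated-adjusted values had opposite signs or differed in size. Their counts are to be read against 20.8% of all genes higher and 15.1% lower directly. In the untreated-adjusted gap these shares were 11.6% and 10.6%, and in both comparisons 8.37% and 5.98%. Of 22 ER chaperones and sensors of the unfolded protein response, 13 were lower at 3 nM and 0 higher, with a median of -0.19, but the untreated-adjusted median was 0.05 and 2 were lower in both, and relative to 1 h 1 of them changed downward. Of 18 extracellular matrix genes 13 were lower and 2 higher (median -0.37), with 5 lower in both, and relative to 1 h 2 changed downward. COL6A3 had 122, 86.8 and 90.1 CPM at 3 nM, against 184, 199.5 and 179 CPM at 0.2 nM. COL1A1 had 892, 939.5 and 977 CPM at 3 nM and 1478, 1617 and 1534 CPM at 0.2 nM (-0.72), while its untreated-adjusted gap was -0.03 (edgeR, adjusted p = 0.7762) and its change since 1 h -0.07 (edgeR, adjusted p = 0.6972). Among 13 mitochondrially encoded mRNAs 10 were lower directly (median -0.24) and 13 higher in the untreated-adjusted gap (median 0.97), in which the high UT share enters. Of 21 cholesterol genes 13 were higher and 3 lower directly, and in both comparisons 1 was higher and 1 lower. With limma on TPM 4 were higher directly, and relative to 1 h 0 changed upward and 1 downward. Of 12 reference genes 3 were higher and 2 lower, shares near those of all genes, with a median of 0.03.

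Several other lists, to be read against 20.8% of all genes higher and 15.1% lower, held single genes that separated the doses. Of 12 ERK feedback genes 4 were higher and 3 lower, and the phosphatase gene DUSP1 had 688, 844 and 891 CPM at 3 nM, against 461, 446 and 454 CPM at 0.2 nM (0.83, edgeR, adjusted p = 1.091e-14). DUSP1 lay above UT 2, which had 532, 524 and 580.0 CPM, and at 0.2 nM below UT, which had 1012 to 1040 CPM. Of 12 YAP targets 8 were higher and 2 lower, or 3 and 1 with limma on TPM, and 4 and 2 in the untreated-adjusted gap. ANKRD1, a YAP target, had 1012, 1027 and 1056 CPM at 3 nM and 649, 698 and 669 CPM at 0.2 nM (0.62), without overlap. It exceeded UT 2 at 3 nM by 0.71 and differed from UT at 0.2 nM by -0.05 on the log2 scale. Of 14 interferon-stimulated genes 4 were higher and 0 lower, a share near that of all genes, and 1 was higher in the untreated-adjusted gap. Among the 4 was the transcription factor IRF1, with 65.6, 56.9 and 54.9 CPM at 3 nM, against 39.5, 33.9 and 34.0 CPM at 0.2 nM (0.72). Of 20 hypoxia and glycolysis genes 9 were lower and 4 higher, against 1 and 3 in the untreated-adjusted gap. HK2, a hexokinase, had 52.4, 42.7 and 41.6 CPM at 3 nM, against 60.8, 59.95 and 62.9 CPM at 0.2 nM and 19.0 to 21.7 CPM over the untreated libraries, so both doses lay above untreated cells and 3 nM by less (-0.42). Of 16 heat shock genes 6 were higher and 5 lower, and 6 and 0 in the untreated-adjusted gap. Of 17 NRF2 targets 5 were higher and 0 lower, and 2 and 0 in the untreated-adjusted gap. Of 27 ribosome biogenesis factors 7 were higher and 4 lower directly, while in the untreated-adjusted gap 1 was higher and 6 lower, in both comparisons 0 higher and 3 lower, and relative to 1 h 8 changed downward.

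Beyond the lists, ZXDA, a zinc finger factor encoded on chromosome X, was among the 12 highest genes called in both comparisons at 1 CPM or more. It had 24.3, 25.9 and 25.9 CPM at 3 nM, against 6.96, 7.33 and 6.58 CPM at 0.2 nM (log2 fold change 1.86, edgeR, adjusted p = 2.914e-23), and how reads were split between it and its close paralog ZXDB is uncertain. GAS1, a membrane protein linked to growth arrest, and ADAMTS1, a secreted metalloprotease, also among the 12, differed by 1.44 and 1.36. The noncoding transcript CH507-513H4.6 (chr21:8210384-8211306) had the largest difference of the 12, 4.02, with 1569, 1477 and 6296 CPM at 3 nM, against 228, 191 and 152 CPM at 0.2 nM. Replicate 3 stood apart as in 5.8S RNA, and without it the difference was 2.99. In the other direction CHI3L1, a secreted chitinase-like protein, had 1.11, 0.805 and 0.869 CPM at 3 nM and 4.18, 4.06 and 3.98 CPM at 0.2 nM (-2.12, edgeR, adjusted p = 1.046e-09), but UT also held more than UT 2 the untreated-adjusted gap was -0.99, and the change since 1 h, -0.64, was not called (edgeR, adjusted p = 0.5022).

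The dose gap at 2 h differed from the gaps at 1 and 4 h gene by gene. CHAC1 stood at 15.6 ± 0.829 CPM at 3 nM and 9.30 ± 1.79 CPM at 0.2 nM after 1 h (SD, n = 3 each), a gap of 0.71, against -0.05 at 2 h and -0.02 at 4 h. DDIT4 had a gap of 0.60 at 1 h, -0.14 at 2 h and 0.08 at 4 h. Relative to 1 h, the gaps of CHAC1 and DDIT4 had narrowed by 2 h (change -0.76 and -0.73, edgeR, adjusted p = 3.435e-07 and 4.055e-08). SESN2 had no called gap at 1 or 2 h but 287 ± 7.40 CPM at 3 nM and 215 ± 0.355 CPM at 0.2 nM at 4 h, a gap of 0.41. ATF3 went the other way from CHAC1, with gaps of 0.41, 1.25 and 1.72 at 1, 2 and 4 h. PPP1R15A had gaps of 0.53, 0.95 and 1.06. At 4 h ATF3 was at 349 ± 17.9 CPM at 3 nM and 106 ± 6.76 CPM at 0.2 nM. IL11 averaged 40.4 CPM at 3 nM and 31.5 CPM at 0.2 nM at 1 h, and the order had turned by 2 h (change of the gap -1.08, edgeR, adjusted p = 2.59e-08). Over all genes the gap changed between 2 and 4 h at 565 genes upward (3.13%) and 421 downward (2.33%).

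**Figure D4:**
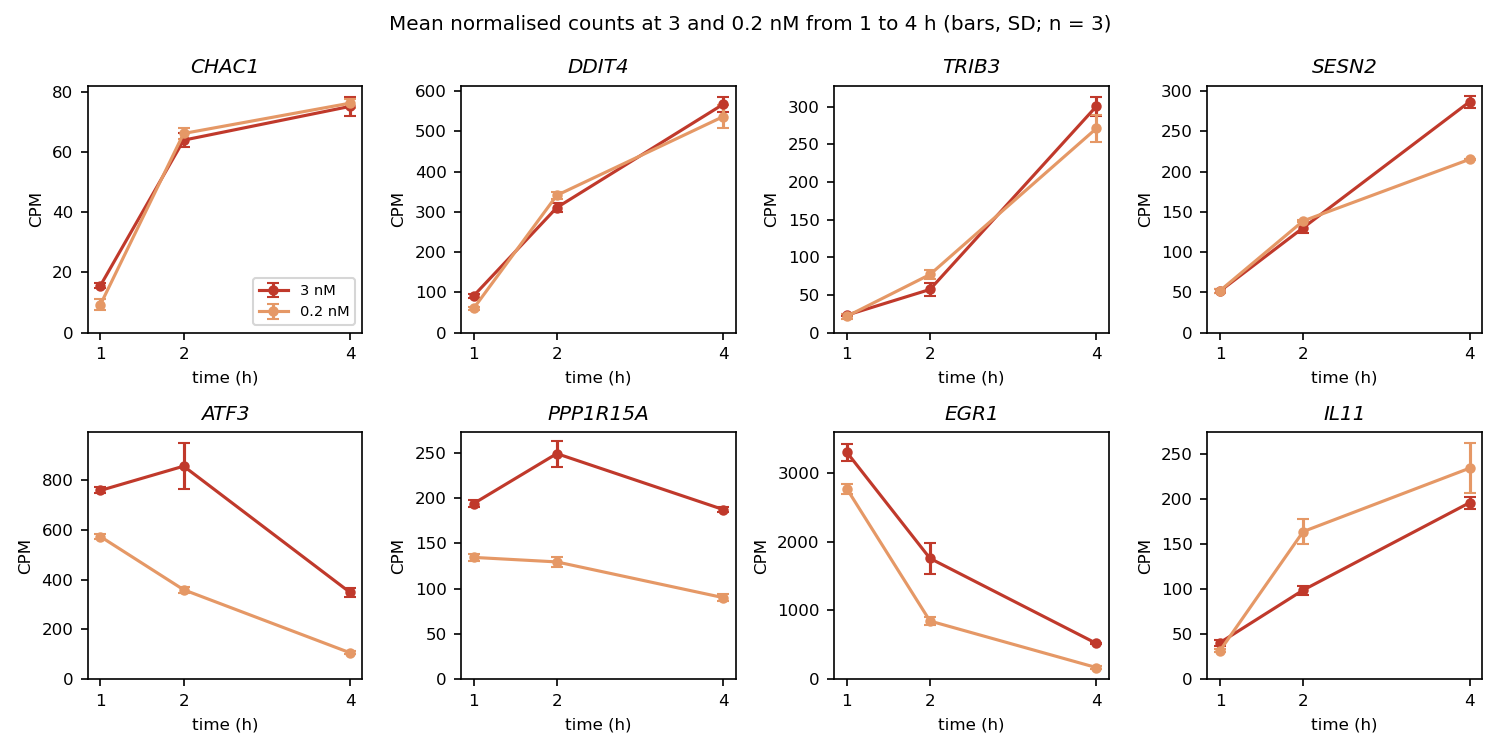
Mean CPM (vertical axes from 0) at 3 nM and 0.2 nM after 1, 2 and 4 h for 8 genes, with bars for SD (n = 3). The lines of CHAC1 meet from 2 h on, those of ATF3 and PPP1R15A stay apart, SESN2 separates only at 4 h, and IL11 lies lower at 3 nM from 2 h on.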

How the data were processed

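RNA was extracted in plate format and libraries were made with a directional kit, per the labels' protocols. Per the submitters' processing notes, FastQC 0.11.5 and Salmon 0.9.1 were used with GRCh38; the annotation release and the strand setting of the counting are not given in the sources used here, so an antisense gene and its partner may share reads. The authors deposited estimated counts per gene, of which 54.2% of the nonzero values were whole (tolerance 1e-06), and TPM values, used here for gene symbols and 1 alternative. 57068 of 57665 gene IDs (99.0%) matched GENCODE 29, from which coordinates and gene types were taken.

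Counts were rounded, filtered on low counts (18040 genes kept), scaled by TMM and fitted in edgeR 4.0.16 (R 4.3.3) with 1 mean per group over all 60 libraries (40 residual degrees of freedom), using the quasi-likelihood F test with Benjamini-Hochberg adjustment per comparison at 0.05. The SE is the log2 fold change divided by the root of F, and 95% intervals use it. CPM are counts divided by the TMM-scaled library size. No column lacked a sample. Alternatives were RLE scaling, no filter, DESeq2 1.42.0, limma 3.58.1 on log2(TPM + 0.5), the 12 compared libraries only, thinned deep libraries, no mitochondrial genes, a replicate block, each library left out, and, chosen after UT was seen to stand apart, each dose relative to itself at 1 h. The fit was tested on simulated data.

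Genes were named by rule: a core set of 10, the 12 highest and 12 lowest coding or long noncoding genes called in both comparisons at 1 CPM or more, and up to 3 called members per list, exceptions being marked. Not all genes that the rule names are reported here. The members and lists were chosen with earlier results of these data known. List medians and counts stand without a test of the list.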

Additional observations from a re-analysis of the deposited data

Results flagged for a closer look

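The dose gap of 3 of the 10 core genes changed between 2 and 4 h by a test of that change in edgeR, the dose gap being 3 nM minus 0.2 nM at each time. SESN2 changed by 0.50 on the log2 scale (adjusted p = 1.971e-10), being -0.09 at 2 h and 0.41 at 4 h. TRIB3 changed by 0.58 (adjusted p = 0.0001054), being -0.43 at 2 h and 0.15 at 4 h, where it averaged 301 CPM at 3 nM and 271 CPM at 0.2 nM. ATF3 changed by 0.47 (adjusted p = 0.008237), widening to 1.72 at 4 h. All libraries at 3 nM were sequenced more deeply than those at 0.2 nM at every time. With the deep libraries thinned, the change was called upward for 413 genes and downward for 289, against 565 and 421 without thinning. For these 3 genes the change after thinning was not looked at.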

How the results depend on the processing

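Most named genes held their direction and side of the threshold. Of 124 genes named by the rule, 87 kept their call in all 20 alternatives. The rule mostly picks called genes, and 120 of the 124 were called in the main fit. With the deep libraries thinned to the shallow depth, direct calls were 2902 higher and 2399 lower, against 3757 and 2716. Of the 123 genes at least 2-fold in both, 75 were shared with the thinned fit. With limma on TPM the counts moved. The direct gap was called higher for 1271 genes, the untreated-adjusted gap higher for 188 and lower for 4113, the change from 2 to 4 h higher for 76 and lower for 101, and 24 and 47 genes were at least 2-fold higher and lower in both. On that scale the median of all genes was -0.03 directly and -0.25 untreated-adjusted, and 38.8% and 4.37% of calls were higher, against 58.0% and 52.4% with TMM; the cause was not tested. Without the filter 67.5% of direct calls were higher. Relative to 1 h in place of untreated, 285 genes were higher and 383 lower. ATF4 and ASNS, not called, reversed on TPM to -0.002 and -0.071, and ASNS without replicate 3 at 0.2 nM (-0.017) or replicate 1 at 3 nM (-0.007), within a range of -0.017 to 0.081 over the libraries left out.

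Leaving out each library gave 3035 to 3752 direct calls higher and 2171 to 2816 lower, 1734 to 2393 and 1415 to 1825 untreated-adjusted, and 38 to 55 and 60 to 94 at least 2-fold in both. The change from 2 to 4 h could not be fitted with the 12 libraries only. Same-numbered 3 nM and 0.2 nM libraries deviated together at r of 0.187, -0.0237 and 0.022, and differently numbered ones at -0.12 to 0.123. For 3 nM and UT 2 the same-numbered values were 0.292, 0.133 and 0.0849, and the others -0.192 to 0.0896. For 0.2 nM and UT the same-numbered values were -0.0131, -0.00104 and 0.0505. The labels do not say whether same-numbered libraries were handled together. With the replicate block 45 and 81 genes were at least 2-fold higher and lower in both, 120 of the 126 shared with the 123 without it, and direct calls were 3784 higher and 2737 lower. Depth limits genes near 0.462 CPM at 0.2 nM.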
